A study of Mus musculus with 12 samples.

Results

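The airway secretory and mucin genes described here are 7 named genes: Scgb1a1, Scgb3a1, Scgb3a2, Bpifa1, Muc5b, Agr2 and Reg3g. They were chosen by symbol, out of 14179 genes listed in at least 1 of 3 deposited expression tables, and each was present in all 3 tables. RNA was sequenced from mouse lung cells labelled as alveolar epithelial cells, in 12 libraries of 4 groups with 3 libraries each. All mice were C57BL/6, 8 to 10 weeks old, and all instillations went into the trachea. The LPS group had received 2 mg/kg lipopolysaccharide, a component of the bacterial cell wall that causes acute lung inflammation, 1 day earlier. The bleomycin groups had received 1.5 U/kg of this anticancer drug, which injures the mouse lung and leads to fibrosis, either 2 or 4 weeks earlier. The control group had received saline, for which the labels give no time. Cells of digested lung were depleted of leukocytes (CD45 and CD16/32), endothelium (CD31), mesenchyme (CD90 and PDGFRα) and red cells (Ter119) with magnetic beads, and cells binding an antibody to EpCAM, an epithelial surface protein, were then kept. This selection does not separate airway from alveolar epithelium. Nothing in the labels ties the libraries to separate mice, so the p-values cover the spread among these libraries only, which can be technical.

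The airways are lined by ciliated cells and by secretory cells, of which club cells and goblet cells are the main kinds. Club cells release secretoglobins, small proteins that include the club cell secretory protein encoded by Scgb1a1, and goblet cells release the gel-forming mucins that trap particles. Inflammation and injury are known to change the number and the products of both, and club cells can also serve as progenitors that repair the airway.

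By role, the genes fall into secretoglobins (Scgb1a1, Scgb3a1 and Scgb3a2), antimicrobial secreted proteins (Bpifa1 and Reg3g) and the mucin pathway (Muc5b, a gel-forming mucin, and Agr2, an endoplasmic reticulum protein needed for mucin assembly). The deposited tables use mm10, in which Scgb1a1 lies on chromosome 19 (9083636 to 9087958, minus strand) and Scgb3a1 on chromosome 11 (49663610 to 49665118, plus strand). Bpifa1 lies on chromosome 2 (154142880 to 154149219, plus strand) and Muc5b on chromosome 7 (141839070 to 141873084, plus strand). Agr2 lies on chromosome 12 (35992907 to 36004087, plus strand) and Reg3g on chromosome 6 (78466269 to 78468872, minus strand). The loci of all 7 genes matched the GENCODE M21 annotation, and none overlapped another gene. No stretch of 50 bases in a transcript of these genes occurred in a transcript of another gene. The longest transcripts ran from 476 bases in 3 exons (Scgb1a1) to 14964 bases in 49 exons (Muc5b).

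RefSeq promoter windows (GRCm38.p6) were at hand for 4 of the 7 genes. The 250 bases before each RefSeq start are shown because 3 of these genes (Scgb3a1, Agr2 and Reg3g) were higher after LPS and the other (Bpifa1) did not pass the test. Capitals mark matches on either strand to TTCNNNGAA, a STAT motif, and CTCAAG, the core of the NKX2-1 motif. Each sequence is written 5′ to 3′ on the strand of its gene. The windows lie at chr11:49663345-49663594 (plus strand) for Scgb3a1 and chr6:78468875-78469124 (minus strand) for Reg3g. Those of Agr2 and Bpifa1 lie at chr12:35992675-35992924 and chr2:154142630-154142879, both on the plus strand.
Scgb3a1: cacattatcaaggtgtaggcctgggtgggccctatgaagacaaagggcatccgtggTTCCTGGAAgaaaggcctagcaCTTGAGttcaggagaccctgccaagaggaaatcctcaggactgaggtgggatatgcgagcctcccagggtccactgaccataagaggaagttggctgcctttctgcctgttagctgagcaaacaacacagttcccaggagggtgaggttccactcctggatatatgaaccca
Reg3g: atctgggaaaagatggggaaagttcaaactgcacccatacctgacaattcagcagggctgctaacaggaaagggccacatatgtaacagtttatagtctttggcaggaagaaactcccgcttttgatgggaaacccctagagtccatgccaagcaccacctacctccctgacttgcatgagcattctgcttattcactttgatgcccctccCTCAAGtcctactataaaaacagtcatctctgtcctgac
Agr2: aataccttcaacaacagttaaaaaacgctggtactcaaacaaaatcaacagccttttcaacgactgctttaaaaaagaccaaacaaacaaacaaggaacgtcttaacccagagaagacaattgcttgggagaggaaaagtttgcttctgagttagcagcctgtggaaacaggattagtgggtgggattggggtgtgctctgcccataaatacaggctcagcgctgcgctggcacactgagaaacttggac
Bpifa1: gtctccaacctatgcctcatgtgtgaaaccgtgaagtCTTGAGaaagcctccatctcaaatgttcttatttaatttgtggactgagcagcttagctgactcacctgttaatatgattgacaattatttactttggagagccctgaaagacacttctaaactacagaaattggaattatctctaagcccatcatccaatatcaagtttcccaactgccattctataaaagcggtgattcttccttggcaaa
The Scgb3a1 window held 1 match to the STAT motif, beginning 194 bases before the start, and 1 to the NKX2-1 core, at 172 bases. The Bpifa1 window held 1 NKX2-1 core at 213 bases and the Reg3g window 1 at 39 bases before the start. The Agr2 window held neither motif. None of the 4 windows held the NF-kB string searched, GGG and TTTCC with 2 bases of any kind between them. Other forms of the NF-kB motif were not searched, so such sites may be present. Of 32851 promoter windows of the same length, 7.02% held the STAT motif, 13.3% the NKX2-1 core and 1.41% the NF-kB string. No matches overlapped in the windows shown. The matches describe letters in these windows and say nothing of binding.

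Expression was deposited as FPKM, that is, sequenced fragments per length of transcript and per library total, so levels are scaled by length and can be compared between genes. No read counts were at hand, and depth is unknown. Over the 13518 genes in all tables, summed FPKM ran from 288890 to 403757 per library. In the 4-week group library 2 differed from all others, with 45.4% of genes at 0, against at most 0.577% in each of the other 11 libraries, and 2 of the 7 genes (Muc5b and Reg3g) were among those at 0. It also listed Epcam and Foxj1, defining genes of epithelium and ciliated cells, at 0. Tests of the 7 genes at 4 weeks are therefore given with and without it. The number of the third 4-week library appears in no sample's title, and it is named unnumbered here. All comparisons with saline use the same 3 saline libraries. Saline library 2 was the highest of the 3 saline libraries for 7 of the 7 genes, for 8 of 8 ciliated cell markers and for 8 of 8 markers of alveolar type 2 cells, against 32.7% of all genes.

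Markers were compared with the label. The summed FPKM of 8 alveolar type 2 markers was 3818 to 7224 after LPS, 3511 to 4460.1 at 2 weeks of bleomycin, 11721 to 22218 at 4 weeks and 14162 to 18356 in saline. That of 8 ciliated markers was 138 to 177 after LPS, 161 to 202 at 2 weeks, 29.3 to 243 at 4 weeks and 211 to 265 in saline, so airway cells were present beside alveolar cells in every group. Neutrophil markers (8 of 8 measured) summed to 2685 to 7630.2 FPKM after LPS, 164 to 258 at 2 weeks, 32.0 to 209 at 4 weeks and 224 to 571 in saline. Macrophage markers (8 of 8) summed to 3311 to 4535 after LPS, 2326 to 3269 at 2 weeks, 878 to 4093 at 4 weeks and 3721 to 4415 in saline. Lyz2 made up most of each macrophage sum (2912 to 4117 FPKM after LPS, 2056 to 3021 at 2 weeks and 3639 to 4366 in saline). The sums therefore mainly followed Lyz2. The rest of the sum, that of the other macrophage markers together, was larger in each LPS and 2-week library than in any saline library. Of the 2-week libraries, library 3 came nearest to saline, with a sum of 2340 and Lyz2 at 2152 FPKM. In saline library 1, where the rest was largest in saline, they were 3721 and 3639 FPKM. Marco, 1 of the 8, had 68.0 to 109 FPKM after LPS, against 1.46 to 3.22 in saline, and 2.75 to 9.60 at 2 weeks, which overlapped saline. The 5 fibroblast markers summed to 370.2 to 612 after LPS, 1265 to 1422 at 2 weeks, 406 to 1141 at 4 weeks and 615 to 739 in saline. Of 5 basal cell markers 1 was in all tables, at no more than 1.95 FPKM in any library. The summed level of 4 general epithelial genes (Epcam, Cdh1, Krt8 and Krt18) was 201 to 295 after LPS, 308 to 356 at 2 weeks, 362 to 498 at 4 weeks and 496 to 587 in saline. Library 2 set 1 end of each of these 4-week ranges. Without it they were 11721 to 15774 (alveolar type 2), 167 to 243 (ciliated), 122 to 209 (neutrophil), 3887 to 4093 (macrophage), 1031 to 1141 (fibroblast) and 362 to 382 (general epithelial). Fibroblast sums then lay above, and neutrophil and general epithelial sums below, those of every saline library. In such bulk samples, fewer cells of a type and less RNA per cell cannot be told apart.

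The 7 genes spanned a wide range of levels. Scgb1a1 was the most abundant or second most abundant of the 13518 genes, ranking 1 or 2 in every library, and it alone made up 87.5% to 99.2% of the summed FPKM of the 7 genes. Together they made up 1.61% to 2.94% of a library's summed FPKM after LPS, 1.31% to 2.30% at 2 weeks of bleomycin, and 3.53% to 4.78% in saline. At 4 weeks the share was 6.84% in library 1, 18.04% in library 2 and 4.29% in the unnumbered library. The shares after LPS and at 2 weeks lay below those of every saline library. In saline, Scgb3a2 ranked 49 to 89 and Scgb3a1 117 to 215, whereas Muc5b ranked 9487 to 11439 and Agr2 10425 to 13500.

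**Figure D1:**
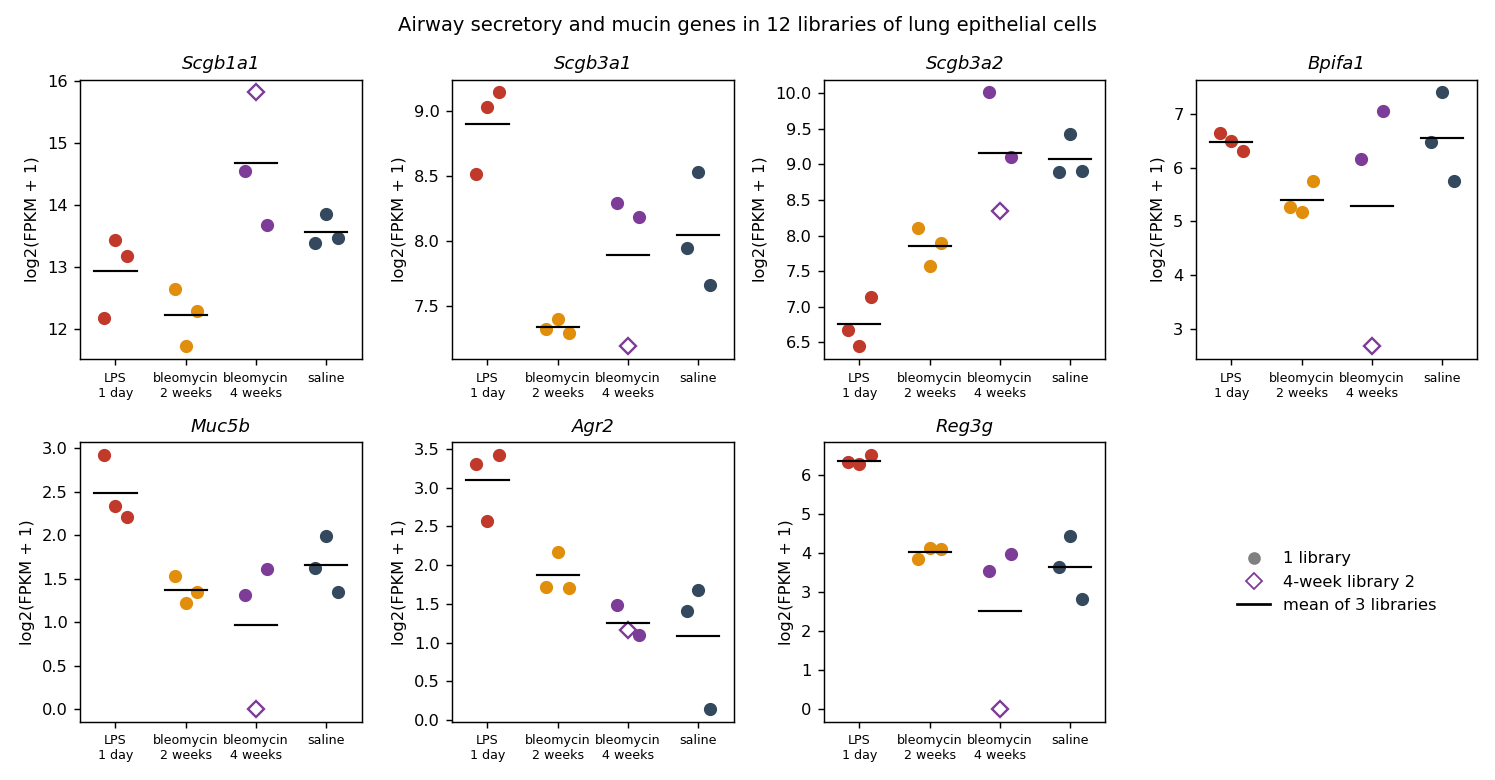
Levels of the 7 genes in each library, as log2(FPKM + 1) on the vertical axis, by group on the horizontal axis; 1 point is 1 library, the open diamond is 4-week library 2 and the bar is the group mean. Reg3g, Agr2 and Muc5b were higher in each LPS library than in any saline library, and Scgb3a2 was lower in each LPS library than in any other group.

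Among the secretoglobins, Scgb1a1, the main secreted product of club cells, had 4648, 11029 and 9311 FPKM in the LPS libraries, 6448, 3386 and 5028 FPKM in the 2-week bleomycin libraries, and 23855, 57536 and 13120.3 FPKM in 4-week libraries 1, 2 and unnumbered, against 10682, 14835 and 11399 FPKM in saline. All 2-week libraries were below all saline libraries, and LPS library 2 alone of the LPS group reached into the saline range. The mean was 4954 ± 1532 FPKM at 2 weeks and 12305 ± 2219.85 FPKM in saline (SD, n = 3 each). Scgb1a1 fell at 2 weeks, with a log2 difference of -1.35 ± 0.26 (SE, limma adjusted p = 0.0081). After LPS the log2 difference from saline was -0.64 (95% interval -1.71 to 0.43, limma adjusted p = 0.296), which does not show that the level stayed the same. With libraries scaled to equal totals this difference was -0.83 and passed the threshold (limma adjusted p = 0.0471). Of neighbouring groups in the order 4 weeks, saline, LPS and 2 weeks, none differed past the threshold.

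Scgb3a2, a secretoglobin of distal club cells whose transcription depends on NKX2-1 in mouse, had 101, 85.9 and 140 FPKM in the LPS libraries, 275, 188 and 237 FPKM at 2 weeks, and 1032, 323 and 551 FPKM in 4-week libraries 1, 2 and unnumbered, against 474, 691 and 477 FPKM in saline. The LPS libraries were the lowest, the 2-week libraries lay between them and saline without overlap, and the 4-week libraries spread to both sides of saline. It fell to 109 ± 27.6 FPKM after LPS, against 547 ± 124 FPKM in saline (SD, n = 3 each), that is, 0.199 of the saline mean and a log2 difference of -2.33 ± 0.25 (SE, limma adjusted p = 0.000254). At 2 weeks it was 234 ± 43.7 FPKM (SD, n = 3), 0.427 of the saline mean, with a log2 difference of -1.22 ± 0.19 (SE, limma adjusted p = 0.00384). Levels after LPS were also lower than at 2 weeks, by -1.11 ± 0.24 on the log2 scale (SE, limma adjusted p = 0.00726), a call lost with median-ratio scaling (-0.78, limma adjusted p = 0.075). In the order 4 weeks, saline, 2 weeks and LPS, 4 weeks and saline were the neighbours that did not differ past the threshold.

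Scgb3a1, a secretoglobin of secretory cells in the larger airways, had 366, 522 and 565 FPKM in the LPS libraries, 159, 168 and 156 FPKM at 2 weeks, and 312, 145 and 290.0 FPKM in 4-week libraries 1, 2 and unnumbered, against 246, 369.9 and 202 FPKM in saline. LPS library 1 lay just below saline library 2, so these groups overlapped, whereas every 2-week library was below every saline library. It rose to 484 ± 105 FPKM after LPS, against 272 ± 87.2 FPKM in saline (SD, n = 3 each), a log2 difference of 0.85 ± 0.28 (SE, limma adjusted p = 0.0396). It fell to 161 ± 6.21 FPKM at 2 weeks (SD, n = 3), a log2 difference of -0.71 ± 0.20 (SE, limma adjusted p = 0.0371). Both calls were lost in several fits with 1 library left out, which also have fewer libraries, while the direction of the differences stayed the same. The call after LPS was lost without LPS library 2, LPS library 3, saline library 1 or saline library 3 (0.66 to 0.80, limma adjusted p = 0.08, 0.136, 0.117 and 0.176 in that order) and with quantile normalization (0.40, limma adjusted p = 0.177). The call at 2 weeks was lost without any 1 of the 2-week libraries or saline library 1 (-0.76 to -0.69, limma adjusted p = 0.089, 0.0817, 0.105 and 0.0594 in that order) and with equal totals (-0.56, limma adjusted p = 0.0572). In the direct comparison Scgb3a1 was higher after LPS than at 2 weeks by 1.56 ± 0.22 on the log2 scale (SE, limma adjusted p = 0.000845). In the order LPS, saline, 4 weeks and 2 weeks, LPS and saline were the neighbours that differed past the threshold with all libraries in the test. Without 4-week library 2 the order was LPS, 4 weeks, saline and 2 weeks, and saline and 2 weeks were the neighbours that differed.

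Within a library, the ratio of Scgb1a1 to Scgb3a2 FPKM was 45.9, 128 and 66.7 in the LPS libraries, 23.4, 17.98 and 21.2 at 2 weeks, 23.1 and 23.8 in 4-week libraries 1 and unnumbered, and 22.5, 21.5 and 23.9 in saline. Outside the LPS group the 8 ratios thus lay between 17.98 and 23.9 while Scgb1a1 itself ran from 3386 to 23855 FPKM, and 4-week library 2 stood apart at 178. The LPS ratios were above all saline ratios, with a log2 difference of 1.69 (two-sided exact permutation test, p = 0.1, the smallest that 3 against 3 allows). The ratio at 2 weeks differed from saline by -0.13 on the log2 scale (exact permutation p = 0.4). The ratio of Scgb3a1 to Scgb3a2 was 3.62, 6.07 and 4.05 in the LPS libraries, 0.576, 0.890 and 0.656 at 2 weeks, 0.303, 0.448 and 0.526 at 4 weeks, and 0.519, 0.535 and 0.423 in saline. Scgb3a1 transcripts therefore outnumbered Scgb3a2 transcripts per length in each LPS library and in no other library. The log2 difference from saline was 3.18 after LPS and 0.51 at 2 weeks (exact permutation p = 0.1 each, the smallest possible). The ratios were chosen after the levels had been seen.

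**Figure D2:**
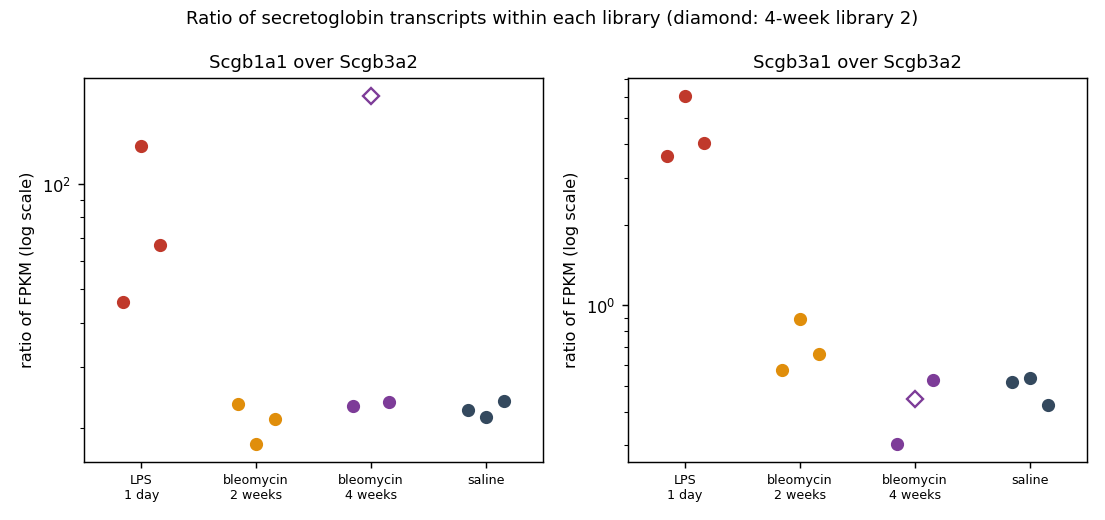
Ratio of FPKM within each library (log scale on the vertical axis) of Scgb1a1 to Scgb3a2 on the left and of Scgb3a1 to Scgb3a2 on the right, by group; 1 point is 1 library and the open diamond is 4-week library 2. The LPS libraries sit at 45.9 to 128 on the left and 3.62 to 6.07 on the right, above all saline libraries.

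Of the antimicrobial genes, Reg3g encodes a secreted C-type lectin that kills Gram-positive bacteria and is known as a target of IL-22 and STAT3 signalling in mouse epithelium. It had 79.5, 76.8 and 90.4 FPKM in the LPS libraries, 13.4, 16.5 and 16.4 FPKM at 2 weeks, and 10.7 and 14.7 FPKM in 4-week libraries 1 and unnumbered (listed at 0 in library 2), against 11.4, 20.9 and 6.02 FPKM in saline. The LPS libraries stood far above every other library, and the other groups overlapped. Reg3g rose to 82.2 ± 7.20 FPKM after LPS, against 12.8 ± 7.51 FPKM in saline (SD, n = 3 each), 6.44 times as much, with a log2 difference of 2.74 ± 0.35 (SE, limma adjusted p = 0.000631). It was also higher after LPS than at 2 weeks, by 2.35 ± 0.17 on the log2 scale (SE, limma adjusted p = 2.06e-05). At 2 weeks the log2 difference from saline was 0.40 (95% interval -0.47 to 1.26, limma adjusted p = 0.453). Thus in the order LPS, 2 weeks, saline and 4 weeks, LPS and 2 weeks were the neighbours that differed.

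Bpifa1, which encodes a secreted lipid-binding protein of the airway surface with antibacterial activity, had 98.9, 89.4 and 78.8 FPKM in the LPS libraries, 37.7, 35.3 and 52.7 FPKM at 2 weeks, and 70.8, 5.37 and 132 FPKM in 4-week libraries 1, 2 and unnumbered, against 88.6, 169 and 52.9 FPKM in saline. The saline libraries spread over 3.19 times from lowest to highest, and all LPS libraries lay inside that range. The log2 difference after LPS was -0.06 (95% interval -0.88 to 0.75, limma adjusted p = 0.902). All 2-week libraries were below all saline libraries, the highest of them by little, and the log2 difference of -1.15 ± 0.39 (SE) missed the threshold (limma adjusted p = 0.0623). Without saline library 3 it was -1.54 and passed (limma adjusted p = 0.0176). In the direct comparison Bpifa1 was higher after LPS than at 2 weeks, with 89.0 ± 10.1 FPKM after LPS and 41.9 ± 9.45 FPKM at 2 weeks (SD, n = 3 each), a log2 difference of 1.09 ± 0.20 (SE, limma adjusted p = 0.0035). No neighbours in the order saline, LPS, 4 weeks and 2 weeks differed past the threshold. Without 4-week library 2 the order was saline, 4 weeks, LPS and 2 weeks, and LPS and 2 weeks were then neighbours that differed.

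In the mucin pathway, Muc5b, the gel-forming mucin that mouse airways need for clearance, had 6.58, 4.05 and 3.64 FPKM in the LPS libraries, 1.88, 1.32 and 1.55 FPKM at 2 weeks, and 1.48 and 2.05 FPKM in 4-week libraries 1 and unnumbered (listed at 0 in library 2), against 2.09, 2.96 and 1.54 FPKM in saline. Every LPS library was above every other library, and the remaining groups overlapped. It rose to 4.76 ± 1.59 FPKM after LPS, against 2.20 ± 0.718 FPKM in saline (SD, n = 3 each), with a log2 difference of 0.84 ± 0.25 (SE, limma adjusted p = 0.0256). The call was lost without saline library 1 (0.83, limma adjusted p = 0.0758), without saline library 3 (0.68, limma adjusted p = 0.112) and with equal totals (0.70, limma adjusted p = 0.0753). At 2 weeks the log2 difference from saline was -0.29 (95% interval -0.69 to 0.12, limma adjusted p = 0.254). Against 2 weeks, Muc5b was higher after LPS by 1.13 ± 0.22 on the log2 scale (SE, limma adjusted p = 0.00435). LPS and saline were the neighbours that differed in the order LPS, saline, 2 weeks and 4 weeks, and also in the order without 4-week library 2, which was LPS, saline, 4 weeks and 2 weeks.

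Agr2, the protein disulfide isomerase family member that mouse goblet cells need to fold mucins, had 8.93, 4.94 and 9.72 FPKM in the LPS libraries, 2.30, 3.52 and 2.25 FPKM at 2 weeks, and 1.79, 1.24 and 1.15 FPKM in 4-week libraries 1, 2 and unnumbered, against 1.66, 2.21 and 0.102 FPKM in saline. Saline library 3 was far below the other two saline libraries, and all LPS and 2-week libraries lay above all of saline. Agr2 rose to 7.86 ± 2.56 FPKM after LPS, against 1.32 ± 1.09 FPKM in saline (SD, n = 3 each), with a log2 difference of 2.02 ± 0.40 (SE, limma adjusted p = 0.00479). The difference at 2 weeks, 0.79 ± 0.38 on the log2 scale (SE), did not pass (limma adjusted p = 0.163). It was higher after LPS than at 2 weeks by 1.23 ± 0.26 (log2, SE, limma adjusted p = 0.00645). In the order LPS, 2 weeks, 4 weeks and saline, LPS and 2 weeks were the neighbours that differed. Because FPKM of Muc5b and Agr2 were at most 2.96 in saline, differences of log2(FPKM + 1) understate their change.

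LPS was set against saline to ask what had changed in the isolated epithelial cells 1 day after instillation. Of the 7 genes, 4 rose (Reg3g, Agr2, Scgb3a1 and Muc5b) and 1 fell (Scgb3a2), where 40.2% of 12456 genes tested passed the threshold of 0.05, with 14.2% higher and 25.9% lower. Their median log2 difference was 0.84, against -0.22 over all genes tested. In 3 genes every LPS library was above every saline library, which held for 19.9% of all genes, and in 1 (Scgb3a2) every LPS library was below, which held for 35.8%. Calls split 1770 higher to 3232 lower over all genes. With equal totals the split was 1225 to 3669 and the median -0.37, and with median-ratio scaling it was 2530 to 2109 and the median 0.00. Of the 7 genes 3 rose and 2 fell with equal totals, and 4 rose and 1 fell with median-ratio scaling. Without saline library 1 or saline library 3, 3 of the 7 were called. In 1 fit of all 12 libraries Scgb3a2 and Agr2 alone passed (Reg3g limma adjusted p = 0.093), and in the authors' deposited table Reg3g (q = 0.0358) and Scgb3a2 (q = 0.0209) alone did. Neutrophil markers were higher, and ciliated, alveolar type 2 and general epithelial markers lower, in each LPS library than in any saline library (ranges above), and their part in these results was not tested.

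The comparison of 2 weeks of bleomycin with saline asked the same for 2 weeks after that drug. None of the 7 genes rose and 3 fell, the secretoglobins Scgb1a1, Scgb3a1 and Scgb3a2, where 29.8% of 12725 genes passed, with 18% higher and 11.8% lower. The median log2 difference of the 7 genes was -0.71, against 0.05 over all genes. In 4 genes (the secretoglobins and Bpifa1) all 2-week libraries were below all saline libraries, which held for 18.8% of all genes, and in 1 (Agr2) all were above, which held for 28.4%. Calls over all genes split 2290 higher to 1496 lower, 3645 to 922 with equal totals and 1999 to 1995 with median-ratio scaling, and the number of the 7 genes that fell was 3, 2 and 3 in that order. With quantile normalization Scgb1a1 was no longer lower (0.12, limma adjusted p = 0.523). That method gives the genes at a given rank the same value in each library, and Scgb1a1 ranked 1 or 2 in each. In 1 fit of all 12 libraries none of the 3 secretoglobins passed (limma adjusted p = 0.336 to 0.848), and in 1 fit of the 11 libraries other than 4-week library 2 Scgb3a1 alone of them did not (limma adjusted p = 0.0593). In the authors' deposited table Scgb3a2 (q = 0.0454) passed, and Scgb1a1 (q = 0.0597) and Scgb3a1 (q = 0.146) did not. Fibroblast markers were higher, and ciliated, alveolar type 2 and general epithelial markers lower, in each 2-week library than in any saline library, and their part in these results was not tested.

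**Figure D3:**
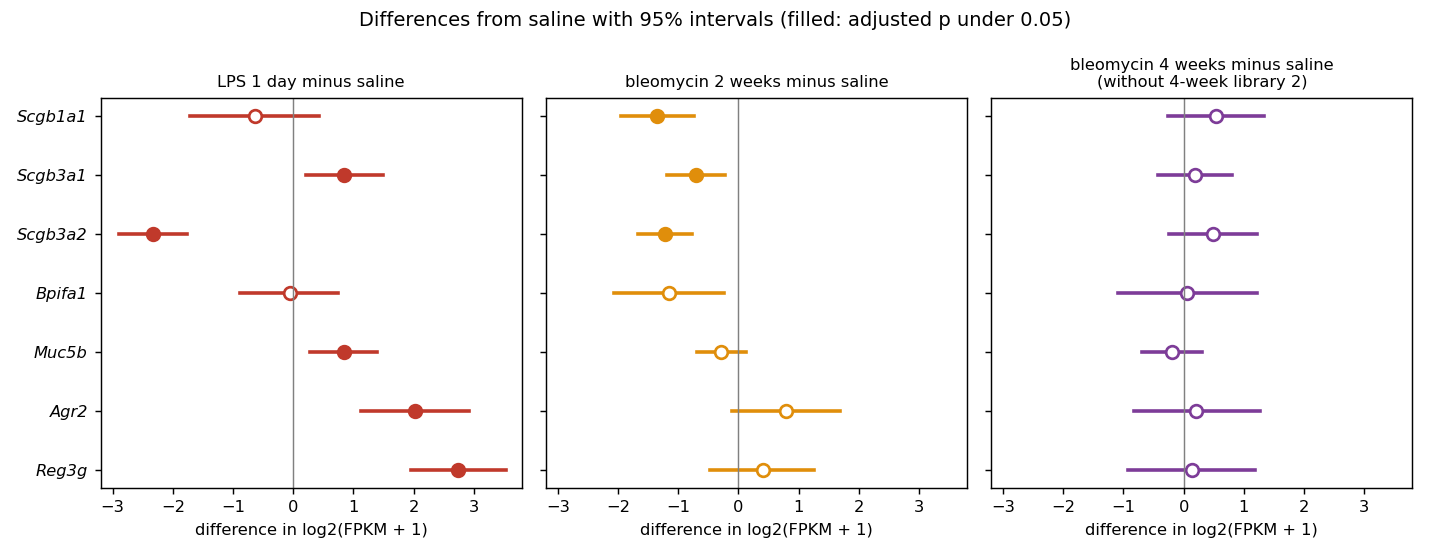
Difference from saline of each gene in log2(FPKM + 1) on the horizontal axis, with its 95% interval, for LPS, 2 weeks and 4 weeks of bleomycin, the last without 4-week library 2; filled points passed a limma adjusted p of 0.05. After LPS 4 genes lie to the right and Scgb3a2 to the left, at 2 weeks the filled points are the 3 secretoglobins, and at 4 weeks no point is filled.

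At 4 weeks of bleomycin none of the 7 genes differed from saline in limma's test, with 0 of 12325 genes called (0%); at an unadjusted p under 0.05 there were 0 of the 7 and 302 of all genes (2.45%). By the q-values in the authors' deposited table, 0 of the 7 passed as well. Without library 2, again 0 of the 7 were called, where 1.44% of 12284 genes were (0.79% higher and 0.651% lower), and 0 of the 7 had an unadjusted p under 0.05, against 21.2% of genes. The log2 differences then ran from -0.19 (Muc5b, 95% interval -0.69 to 0.31) to 0.54 (Scgb1a1, -0.26 to 1.33). With library 2 they ran from -1.25 (Bpifa1, -4.08 to 1.57) to 1.11 (Scgb1a1, -0.21 to 2.42). Library 2 was the highest library of all for Scgb1a1 (57536 FPKM) and held 18.04% of its summed FPKM in the 7 genes, while it was the lowest of the 12 for Scgb3a1, Bpifa1, Muc5b and Reg3g.

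Levels at 4 weeks were also set directly against those at 2 weeks. With all libraries, 0 of the 7 genes and 0 of 12472 genes were called (0%); at an unadjusted p under 0.05 there were 2 of the 7 and 690 of all genes (5.53%). Without library 2, 4 of the 7 were higher at 4 weeks and none lower, where 9.28% of 12440 genes were called, 1.95% higher and 7.34% lower. Scgb3a2 had 1032 and 551 FPKM in the remaining 4-week libraries, against 275, 188 and 237 FPKM at 2 weeks (log2 difference 1.70 ± 0.29, SE, limma adjusted p = 0.0149). Scgb1a1 had 23855 and 13120.3 FPKM at 4 weeks, against 6448, 3386 and 5028 FPKM at 2 weeks (1.89 ± 0.38, limma adjusted p = 0.0257). Scgb3a1 (0.90 ± 0.14, limma adjusted p = 0.0123) and Bpifa1 (1.21 ± 0.28, limma adjusted p = 0.0384) were higher too, but in 1 fit of the 11 libraries other than library 2 neither passed (limma adjusted p = 0.0654 for Scgb3a1 and 0.102 for Bpifa1). Muc5b, Agr2 and Reg3g differed by 0.09, -0.57 and -0.27 and did not pass (limma adjusted p = 0.698, 0.101 and 0.327 in that order). The median over the 7 genes was 0.90, against -0.16 over all genes. Since library 2 was left out because of its zeros, and only 2 libraries remain at 4 weeks, these calls depend on that choice.

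LPS and 2 weeks of bleomycin were compared directly on their 6 libraries. Reg3g, Scgb3a1, Agr2, Muc5b and Bpifa1 were higher after LPS and Scgb3a2 was lower, 6 calls in 7 genes, where 34.2% of 12488 genes passed, with 10.4% higher and 23.8% lower. The median was 1.13 over the 7 genes, against -0.25 over all genes. In these 6 genes the libraries did not overlap, 5 being higher in all LPS libraries (16.1% of all genes) and 1 lower (36.6%). For Scgb1a1 the log2 difference was 0.71 (95% interval -0.34 to 1.75, limma adjusted p = 0.253), and without LPS library 1 it was 1.08 and passed (limma adjusted p = 0.0162). Over all genes calls split 1303 higher to 2970 lower, 756 to 5427 with equal totals and 2122 to 1660 with median-ratio scaling, and 5 of the 7 genes were higher under each. In 1 fit of all 12 libraries Scgb3a1 alone of the 7 passed (limma adjusted p = 0.0365). Against 4 weeks with all libraries, 0 of the 7 genes were called in limma's test, where 0.668% of 11973 genes passed (0.651% higher and 0.0167% lower). An unadjusted p under 0.05 was found for 5 of the 7 and for 9.61% of genes. In 1 fit of all 12 libraries 4 of the 7 passed, Scgb3a2, Agr2, Reg3g and Muc5b (limma adjusted p = 0.00461, 0.0156, 0.0178 and 0.0378 in that order). Without 4-week library 2, Reg3g (2.61 ± 0.25, limma adjusted p = 5.24e-05), Agr2 (1.81 ± 0.31, 0.0025) and Muc5b (1.03 ± 0.29, 0.034) were higher after LPS than at 4 weeks on the log2 scale (SE, adjusted p). Scgb3a2 was lower (-2.81 ± 0.35, limma adjusted p = 0.000309), and 15% of 11876 genes were called, 7.81% higher and 7.22% lower.

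Other genes linked to secretory cells or the airways were described from lists, and levels in bulk samples do not assign them to airway cells. Over all genes tested, 14.2% rose and 25.9% fell after LPS, and 18% rose and 11.8% fell at 2 weeks. Of 13 club cell genes tested besides the 7, none rose and 9 fell after LPS, with a median log2 difference of -0.98. The smallest adjusted p values were those of Cyp2f2 (-3.07 ± 0.23, limma adjusted p = 4.95e-05), the cytochrome P450 that makes mouse club cells sensitive to naphthalene, Aldh1a7 (-1.56), the carbonyl reductase gene Cbr2 (-1.83) and Aldh1a1 (-1.54). At 2 weeks none of 13 rose and 8 fell, with a median of -0.84, led by Cyp4b1 (-1.40 ± 0.13, limma adjusted p = 0.000479), Selenbp1 (-1.21), Cbr2 (-1.58) and Aldh1a1 (-0.76). Cyp2f2 was at 82.8 ± 20.3 FPKM after LPS and 323 ± 40.9 FPKM at 2 weeks, against 697 ± 111 FPKM in saline (SD, n = 3 each). Like Scgb3a2, it was lower after LPS than at 2 weeks (-1.97 ± 0.23, limma adjusted p = 0.000228). At 4 weeks 0 of 13 club cell genes passed against saline with or without library 2. Against 2 weeks, 8 of 14 were higher at 4 weeks and none lower without library 2, and 0 passed with it. Without library 2, 1.95% of all genes were higher at 4 weeks than at 2 weeks and 7.34% lower.

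Goblet cell and mucin assembly genes were sparse: 9 of 15 were in any table and 5 were tested after LPS. Of those, 3 rose, namely Slc26a4 (2.22 ± 0.23, limma adjusted p = 0.000241), an anion exchanger, Tff2 (1.52 ± 0.27, 0.00336), a trefoil peptide, and Creb3l1 (0.68 ± 0.17, 0.0123). The median was 0.68. At 2 weeks 2 of 6 rose and 1 fell, with a median of 0.46: Creb3l1 rose (0.64 ± 0.11, limma adjusted p = 0.00521), Tff1, listed at 0 in all saline libraries, rose to 1.64 ± 0.752 FPKM (SD, n = 3), and Tff2 fell (-0.94 ± 0.25, 0.0274). Testing required 1 FPKM in 3 libraries, which Tff1 met through the 2-week libraries alone. Its rise was thus favoured by the filter and adds no support. Of 3 other mucins, 0 passed after LPS (median -0.07), while at 2 weeks Muc1 fell (-0.81 ± 0.13, limma adjusted p = 0.0047) and Muc4 rose (0.53 ± 0.15, 0.0362), with a median of -0.29. Muc1 and Muc4 encode membrane-bound mucins.

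Of 4 relatives of the 7 genes tested after LPS none rose and 2 fell, Bpifb5 (-1.43 ± 0.20, limma adjusted p = 0.000961) and the secretoglobin gene Scgb1c1 (-1.26 ± 0.27, 0.00715), with a median of -0.86. At 2 weeks 1 of 5 rose and 3 fell, with a median of -1.14: Bpifa2 rose (0.53 ± 0.14, limma adjusted p = 0.0298), and Scgb1c1 (-2.03 ± 0.25, 0.00128), Bpifb5 (-1.27 ± 0.16, 0.0014) and Bpifb1 (-1.14 ± 0.35, 0.0488) fell. Bpifa2 had 1.13 to 1.49 FPKM at 2 weeks, against 0.373 to 0.918 in saline. It met the level needed for testing through the 2-week libraries alone, so its rise adds no support. Bpifb5 had 2.89 to 4.98 FPKM in saline, against 0.549 to 1.04 after LPS and 0.874 to 1.03 at 2 weeks. Without the saline libraries it would not have met that level, so its falls add no support either. Among 15 other secreted defence genes 9 rose and 1 fell after LPS, with a median of 1.06. Pigr, the receptor that carries IgA across epithelium, rose to 85.2 ± 7.32 FPKM, against 10.8 ± 2.60 FPKM in saline (SD, n = 3 each; log2 2.89 ± 0.19, limma adjusted p = 2.91e-05). Lcn2, which withholds iron from bacteria, rose by 4.38 ± 0.29 and Slpi, a protease inhibitor, by 3.26 ± 0.23 (log2, SE), whereas the lysozyme gene Lyz1 fell (-1.87 ± 0.19, limma adjusted p = 0.000209). At 2 weeks 2 of 14 rose and 6 fell, with a median of -0.10, and Lyz1 (-2.17), Chil1 (-1.36), Chia1 (-1.94) and Sftpd (-1.14) led the falls. Neutrophils and macrophages also express several of the defence genes (Lcn2, Slpi, Ltf, Camp and Lyz2). The part of the higher neutrophil markers after LPS was not tested. Nor was that of the higher macrophage markers other than Lyz2 after LPS and at 2 weeks. Alveolar cells were sequenced together with airway cells. Alveolar type 2 markers were lower in each LPS and 2-week library than in any saline library, and their part in the defence genes was not tested.

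**Figure D4:**
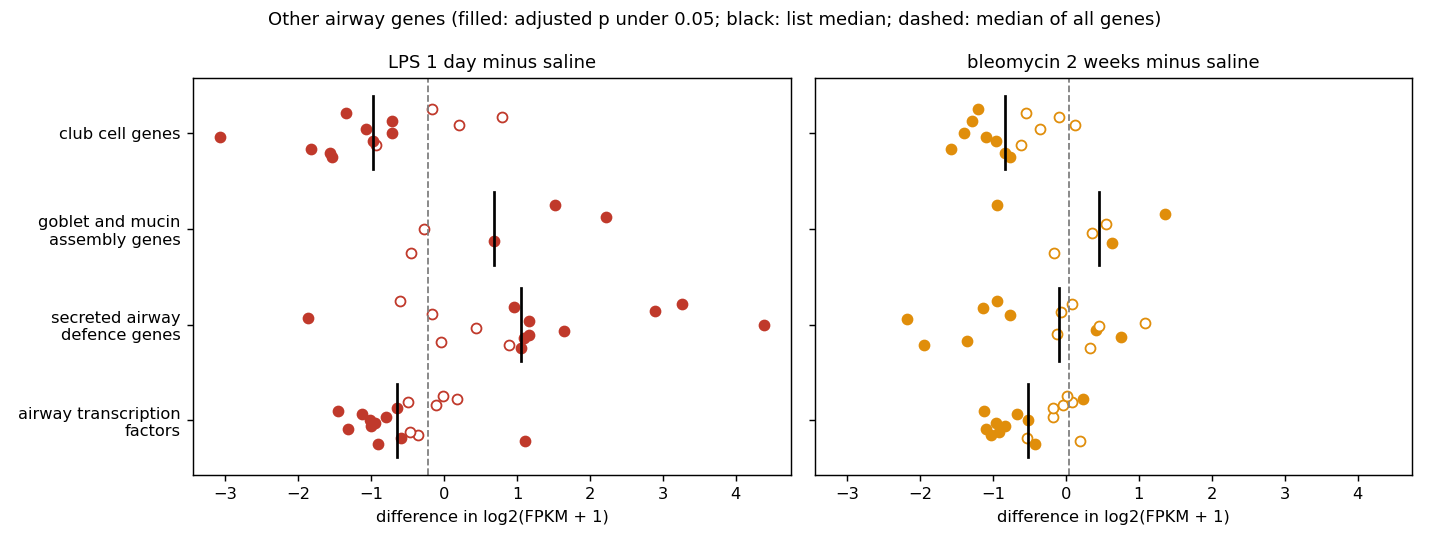
Difference from saline in log2(FPKM + 1) on the horizontal axis for 4 lists of other airway genes, after LPS on the left and at 2 weeks of bleomycin on the right; 1 point is 1 gene, filled where the limma adjusted p was under 0.05, black bars are list medians and the dashed line is the median of all genes. Club cell genes have medians of -0.98 and -0.84, and secreted defence genes 1.06 and -0.10. Airway and alveolar cells were sequenced together, so these levels are not those of airway cells alone.

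Of 17 transcription factors and notch pathway genes listed for the airways, 1 rose and 10 fell after LPS, with a median of -0.65. Airway and alveolar cells were sequenced together, so these differences cannot be assigned to airway cells. The part of the lower alveolar type 2 and general epithelial markers was not tested. Nkx2-1, which drives lung epithelial genes including Scgb3a2, fell to 18.8 ± 5.53 FPKM, against 52.8 ± 9.85 FPKM in saline (SD, n = 3 each; log2 -1.46 ± 0.23, limma adjusted p = 0.00186). Hes1 (-1.02), Klf5 (-1.12) and Cebpa (-0.90) also fell, and the rise was that of Cebpb (1.11 ± 0.26, limma adjusted p = 0.0111). At 2 weeks 1 of 17 rose (Stat3, 0.24 ± 0.07, limma adjusted p = 0.0439) and 9 fell, with a median of -0.52, among them Elf3 (-0.92), Foxa1 (-1.10), Ehf (-1.02) and Nkx2-1 (-1.12). Of 16 cytokines and receptors known to act on secretory cells, 7 rose and 1 fell after LPS (median 0.55), with Osm (3.18 ± 0.17) and Il1b (3.53 ± 0.31) rising and the EGFR ligand gene Areg falling (-1.12 ± 0.20, limma adjusted p = 0.0028). Il17a and Il22, counted among the 7, met the level needed for testing through the LPS libraries alone. The same held for Il17a, counted as a rise at 2 weeks, and the 2-week libraries. At 2 weeks 6 of 16 rose and 1 fell (median 0.34), with Osm (2.57), Il13ra1 (0.99) and Osmr (0.67) higher. In all, 50% of this list passed after LPS and 43.75% at 2 weeks, against 40.2% and 29.8% of all genes. The part of the higher neutrophil markers after LPS was not tested here either. The same goes for the higher macrophage markers other than Lyz2 after LPS and at 2 weeks. At 4 weeks none of the genes of any list passed against saline with all libraries, and without library 2 Lyz1 fell (-1.07 ± 0.18, limma adjusted p = 0.0473) and Il6 rose (0.93 ± 0.14, 0.0367).

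Genes with the most similar course were found among 12327 genes by the root mean square difference from each member, over the 8 treated libraries other than 4-week library 2, of log2(FPKM + 1) minus the saline mean. The nearest were Ppp1r14a (0.49) and Wfdc2 (0.51) for Scgb1a1 and Isg20 (0.19) and Gpx2 (0.20) for Scgb3a1. For Bpifa1 they were Fam57a (0.34) and Crispld2 (0.37), for Muc5b Acat3 (0.19) and Myrip (0.20), for Agr2 Ppa1 (0.24) and Mx1 (0.25), and for Reg3g Sod2 (0.20) and Il18bp (0.23). Among the 7 genes themselves, the closest pair was Scgb3a1 and Muc5b (0.50) and the next Agr2 and Reg3g (0.59), while Scgb3a2 and Reg3g were the farthest apart (3.29). Muc5b and Agr2 had low FPKM, where log2(FPKM + 1) understates change, so distances that involve them depend in part on their level. The secretoglobins Scgb3a1 and Scgb3a2 differed by 2.00 and Scgb1a1 and Scgb3a2 by 1.11. Including 4-week library 2, Scgb3a1 and Muc5b were still the closest pair (0.54), but Agr2 and Reg3g differed by 1.36 and the next pair was Bpifa1 and Muc5b (1.07). Including 4-week library 2, 0 or 1 of the 2 nearest genes stayed the same for each of these 6 members.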

How the data were processed

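Per the file headers, the authors deposited 3 tables of FPKM per library, 1 for each treatment with its saline libraries, and the saline values were identical in all 3. Per the submitters' processing notes, the tools named are HISAT2 and StringTie and the build is mm10, with no version or role stated. For the annotation release and the strand setting, the sources used here give nothing. The deposited log2 fold change is the difference of the groups' mean log2(FPKM + 1), to within 8.22e-15, and the deposited fold change is a linear ratio. The p-values and q-values deposited by the authors served as an alternative only. In each table every gene reached a mean of about 0.5 FPKM in 1 of the groups, and 1 line of each had been emptied. Of low values of 345 single-exon genes, 30.1% to 51.4% lay within 0.1 reads of whole reads, so no counts were recovered and depth is unknown.

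Differences were tested with limma 3.58.1 in R 4.3.3 (two-sided, with a mean-variance trend) on log2(FPKM + 1), over genes that reached 1 FPKM in 3 or more libraries of the fit, on the libraries of the groups compared, with Benjamini-Hochberg adjustment over all genes tested and a threshold of 0.05. The script was tested on simulated data. Of 100 genes given a log2 change of 1 in either direction, 39 were recovered for LPS against saline and 84 for 2 weeks against saline. With a log2 change of 2, 88 and 98 of 100 were recovered in that order. Only these genes were changed, all with a mean log2(FPKM + 1) above 2. In the data 5002 of 12456 genes passed for LPS and 3786 of 12725 at 2 weeks. The adjustment was thus stricter in the simulation, and its shares are not those of the tests of the data. A gene that did not pass may still have changed, in the simulation more often for LPS. All fold changes use log2(FPKM + 1). Ratios within libraries were compared with exact permutation tests (SciPy 1.17.1), 6 comparisons for each ratio, not adjusted; their smallest possible p was 0.1. The 7 genes, the 7 lists, the markers and the rule for named genes (in each list, up to 4 with the smallest adjusted p among those averaging 5 FPKM or more in a group) were chosen with earlier results of these data known. Bpifa2, Bpifb5, Tff1, Muc4, Cebpb, Stat3, Il17a and Il22 fall outside that rule and were named after their values were seen. The labels give no batch. The genes nearest in course to Scgb3a2 are not reported here.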

Additional observations from a re-analysis of the deposited data

Results flagged for a closer look

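Scgb1a1 was flagged because the bleomycin groups lay on opposite sides of saline: all 4-week libraries (23855, 57536 and 13120.3 FPKM) were above the saline mean of 12305 FPKM and all 2-week libraries (6448, 3386 and 5028 FPKM) were below it. The log2 difference between 4 weeks and 2 weeks was 2.45 ± 0.57 (SE) and did not pass (limma adjusted p = 0.478). It was 1.89 ± 0.38 and passed without 4-week library 2 (limma adjusted p = 0.0257). The unnumbered 4-week library lay inside the saline range of 10682 to 14835 FPKM.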

How the results depend on the processing

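Depth is unknown, so what it limits could not be computed. Leaving out 1 library at a time gave 3 to 5 of the 7 genes called for LPS against saline (5 with all libraries), 2 to 4 for 2 weeks against saline (3), 0 for 4 weeks against saline (0), 6 to 7 for LPS against 2 weeks (6), 0 to 4 for LPS against 4 weeks (0) and 0 to 4 for 4 weeks against 2 weeks (0), the highest values of the last 2 being without 4-week library 2. In 1 fit of all 12 libraries, where that library adds to the shared spread, the counts were 2, 0, 0, 1, 4 and 0 in the same order. In 1 fit of the 11 other libraries 4 were called for LPS against 4 weeks and 2 for 4 weeks against 2 weeks. For LPS against saline 3 were called among genes with at least 5 FPKM in 3 libraries, a filter that removes Muc5b and Agr2. For LPS against 4 weeks quantile normalization gave 1. The q-values of the authors' deposited table called 2 for LPS and 1 at 2 weeks against saline, and 0 at 4 weeks.

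Replicate numbers did not pair the samples: correlations of deviations ran from -0.156 to 0.265. With the replicate block 1 gene was called for 4 weeks against 2 weeks (Scgb1a1, 2.99, limma adjusted p = 0.0302) and Agr2 at 4 weeks against saline was -0.22 (0.926); the other 5 counts stayed within 1.5 times. Directions turned as follows on the log2 scale, and the cause was not tested. For LPS against saline Bpifa1 was 0.21 with median-ratio scaling and -0.46 to 0.37 over the libraries left out, and Scgb1a1 was 0.00 with quantile normalization. At 2 weeks against saline Scgb1a1 was 0.12 with quantile normalization and Reg3g -0.01 (without saline library 3) to 0.81 over the libraries left out. At 4 weeks against saline Scgb3a1 was 0.24 with median-ratio scaling, Scgb3a2 -0.03 with quantile normalization, and Scgb3a1, Bpifa1 and Reg3g 0.19, 0.06 and 0.13 in the fit of 11 libraries. Over the libraries left out Scgb3a1 was -0.36 to 0.19, Scgb3a2 -0.35 to 0.49, Bpifa1 -2.13 to 0.06, Agr2 -0.30 to 0.47 and Reg3g -1.86 to 0.13. For LPS against 2 weeks Scgb1a1 was -0.13 with quantile normalization. For LPS against 4 weeks Bpifa1 was -0.12 in the fit of 11 libraries and -0.12 to 2.07 over the libraries left out. For 4 weeks against 2 weeks Bpifa1 was 0.33 with median-ratio scaling, 0.37 with quantile normalization, 1.21 in the fit of 11 libraries and -0.98 to 1.21 over the libraries left out, Muc5b was 0.25 with quantile normalization, 0.09 in the fit of 11 libraries and -0.71 to 0.09 over the libraries left out, and Agr2 was 0.21 with quantile normalization.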
